A study of Mus musculus with 126 samples.

Results

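B9d1 and 9 partner genes encode proteins of the ciliary transition zone, and their transcripts were followed over the primary tumors of 126 male mice, the F2 generation of a TRAMP by NOD/ShiLtJ cross. The list was B9d1, B9d2, Mks1, Tctn1, Tctn2, Tctn3, Tmem67, Tmem216, Tmem231 and Cc2d2a, chosen by name, and for each gene the probe set of highest mean intensity was taken. All 10 genes were found on the array, on 12 of its 41345 probe sets, and all 12 passed the filter on low values. For 8 genes the chosen probe set was annotated to that gene alone. The probe sets of Tctn1 and Tmem216 were each annotated to a second gene as well, Hvcn1 and Cpsf7, so they are given as the Tctn1 and Hvcn1 probe set and the Tmem216 and Cpsf7 probe set and are left out of counts of genes. Tctn3 and Tmem67 each had a second probe set of lower mean.

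Every mouse was a transgene-positive (Tg+) F2 male of a cross between C57BL/6 TRAMP and NOD/ShiLtJ mice, and all 126 carried TRAMP, in which the probasin promoter drives the SV40 T antigen in prostate epithelium. Distant metastasis had been recorded in 87 males and not in 39. Males were killed at 30 weeks or earlier at a humane endpoint, so ages could differ, and 1 array was made from the prostate tumor of each male. Primary tumor burden, the weight of that tumor, had a lowest value of 0.1 g, a median of 4.7 g and a highest value of 14.0 g in males with metastasis, against 0.14, 4.0 and 9.53 g in males without. Values are log2 intensities after robust multi-array averaging (RMA), so a difference of 1 is a 2-fold difference in intensity.

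The primary cilium is an antenna of the cell surface, built on a basal body and used, among other things, for Hedgehog signaling. The transition zone is the short segment between basal body and ciliary shaft, where Y-shaped links tie the microtubules to the membrane and proteins are admitted to or kept out of the cilium. B9d1, B9d2 and Mks1 share a B9 domain and bind one another, the tectonics Tctn1, Tctn2 and Tctn3 and the transmembrane proteins Tmem67 (meckelin), Tmem216 and Tmem231 sit at the ciliary membrane, and Cc2d2a is a C2 domain protein of the same complex. In humans, variants of many of these genes cause Meckel and Joubert syndromes. Many ciliary genes carry in their promoters an X-box, the binding motif of RFX transcription factors.

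The promoters were read to show what these genes share in sequence. Of the 10 genes, 9 had a promoter window in RefSeq (build GRCm38.p6), 250 bases before to 50 bases after the start. The X-box was searched as GTTNCC, 0 to 3 further bases of any kind, then GGNAAC, which reads the same on both strands, and a single RFX site as GTTGCC or its reverse complement GGCAAC. A full X-box usually holds a single site, so the searches overlap. The X-box was found in 3 of the 9 genes, Tctn1, Mks1 and Tctn3, and in 0.936% of 27025 genes with a window. A single site was found in 7 of the 9, those 3 with B9d1, B9d2, Tctn2 and Tmem231, and in 14.1% of all genes with a window. The windows of Cc2d2a and Tmem216 held neither. The sites are printed 5′ to 3′ on the strand of the gene, with the matched letters in capitals and up to 8 bases on each side, so that the members' sites can be set side by side. Matches are a description of these letters, not of binding.
Mks1 X-box, chr11:87853183-87853212, plus strand, 24 bases before the start: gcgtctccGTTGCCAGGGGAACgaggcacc
Tctn3 X-box, chr19:40612351-40612379, minus strand, 140 bases before the start: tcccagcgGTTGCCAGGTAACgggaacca
Tctn1 X-box, chr5:122264411-122264432, minus strand, beginning at base 37 of the transcript: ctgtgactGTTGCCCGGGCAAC
B9d1 single site, chr11:61505156-61505177, plus strand, at base 21: agcctcctGGCAACagcgcgcg
B9d2 single site, chr7:25680788-25680809, plus strand, at base 17: aacctgctGTTGCCccagcaac
Tctn2 single site, chr5:124598754-124598775, plus strand, at base 14: gattggtgGTTGCCatggctgc
Tmem231 single site, chr8:111933789-111933810, minus strand, at base 12: cgccgtcgGTTGCCgtggagac
Tmem231 single site, chr8:111933904-111933925, minus strand, 104 bases before the start: cccatacaGTTGCCttcttgaa

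B9d1 and Mks1 lie on chromosome 11, and the 250 bases before their starts are set side by side. That of B9d1 held no X-box and no single site, while that of Mks1 held 1 X-box, in capitals. The single site of B9d1 lay past the start, at base 21, and looser forms of the motif were not searched.
B9d1, chr11:61504894-61505143, plus strand: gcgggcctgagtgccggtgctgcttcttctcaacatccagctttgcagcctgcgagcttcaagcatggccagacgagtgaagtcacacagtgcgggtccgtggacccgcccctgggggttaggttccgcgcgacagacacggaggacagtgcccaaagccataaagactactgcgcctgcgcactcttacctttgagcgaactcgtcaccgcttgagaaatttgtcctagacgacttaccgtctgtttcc
Mks1, chr11:87852965-87853214, plus strand: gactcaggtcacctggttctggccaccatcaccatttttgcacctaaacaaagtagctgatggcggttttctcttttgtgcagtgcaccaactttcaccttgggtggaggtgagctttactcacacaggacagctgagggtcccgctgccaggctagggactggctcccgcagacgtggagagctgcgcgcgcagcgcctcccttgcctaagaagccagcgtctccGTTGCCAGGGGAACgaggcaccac

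The arrays were alike in level, with medians between 5.84 and 6.05. The array of mouse N1202, a 0.4 g tumor without metastasis, stood apart, with a mean correlation of 0.880 with the other arrays, against 0.915 for the next lowest and a median of 0.970, and results that rest on it are given with and without it. The label prostate tumor was read against marker genes. The prostate transcription factors Foxa1 (lowest 8.80, median 10.9) and Hoxb13 (lowest 5.70, median 9.20) were well detected, while probasin (Pbsn) had a median of 3.67, near the 10th percentile of all probe set means (3.42). The neuroendocrine marker Chga had a median of 10.7 and a lowest value of 6.45. The mean of 17 epithelial genes had a median of 8.70 in tumors under 1 g (n = 15), 6.62 in those of 1 to under 5 g (n = 58) and 6.43 in those of 5 g and over (n = 53). In bulk tumor RNA, fewer cells of a type and less RNA per cell cannot be told apart.

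The first comparison asked whether these genes differ between tumors of males with and without distant metastasis. B9d1 had a lowest value of 7.67, a median of 8.10 and a highest value of 8.82 in metastasis, against 7.60, 8.00 and 8.46 in no metastasis. The 2 ranges overlapped almost fully, with 79 of the 87 tumors with metastasis inside the range of those without, and 62 of the 87 (71.3%) above the median of the other group. The means were 8.13 ± 0.24 (SD, n = 87) with metastasis and 8.00 ± 0.21 (n = 39) without, a difference of 0.12 on the log2 scale (SE 0.044, 95% interval 0.04 to 0.21) or 1.09-fold. By itself the difference had a two-sided permutation p = 0.00568 (100000 resamples), and over all probe sets limma's adjusted p was 0.985. The study picked B9d1 as a metastasis candidate partly from its expression in these tumors, so its own difference is no independent evidence. The paper also reported a proximal expression quantitative trait locus (QTL) for B9d1, with the NOD/ShiLtJ allele correlated with higher expression. B9d1 lies inside a QTL for distant metastasis-free survival in that study.

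Tmem231, a transmembrane member of the complex, had the other difference with an unadjusted p under 0.05. Its values had a lowest value of 7.11, a median of 8.34 and a highest value of 8.91 in metastasis, against 6.85, 8.29 and 8.65 in no metastasis. The means were 8.29 ± 0.28 (SD, n = 87) with metastasis and 8.17 ± 0.42 (n = 39) without, a difference of 0.13 (SE 0.063, 95% interval 0.00 to 0.25, permutation p = 0.0463, limma adjusted p = 0.985). The groups overlapped over most of their range, and the 2 lowest tumors, at 6.85 (N614) and 6.97 (N293), had no metastasis. Without tumors under 1 g the difference was 0.05 (adjusted p = 1.00), and on ranks its unadjusted p was 0.150.

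The other 6 genes with a probe set of their own differed by between −0.07 (Tctn3) and 0.10 (Tmem67), each with an interval that spans 0. Tmem67, or meckelin, had means of 9.20 ± 0.32 with metastasis and 9.10 ± 0.40 without, a difference with an interval of −0.03 to 0.23. The intervals bound what these data allow, and the widest, that of Cc2d2a, ran from −0.17 to 0.19. The Tctn1 and Hvcn1 probe set differed by −0.04 (interval −0.12 to 0.04) and the Tmem216 and Cpsf7 probe set by 0.04 (−0.07 to 0.14). None of the 12 probe sets passed the test over all probe sets, and neither did any of the 23507 tested (0.0% called). At an unadjusted p under 0.05 there were 874 (3.72%), 1.99% higher and 1.73% lower, B9d1 and Tmem231 among the higher. Over all probe sets tested, the methods' t-test and a rank test also called none. The paper adjusted its t-test over the transcripts inside the QTL only, a smaller set, and there B9d1 passed.

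**Figure D1:**
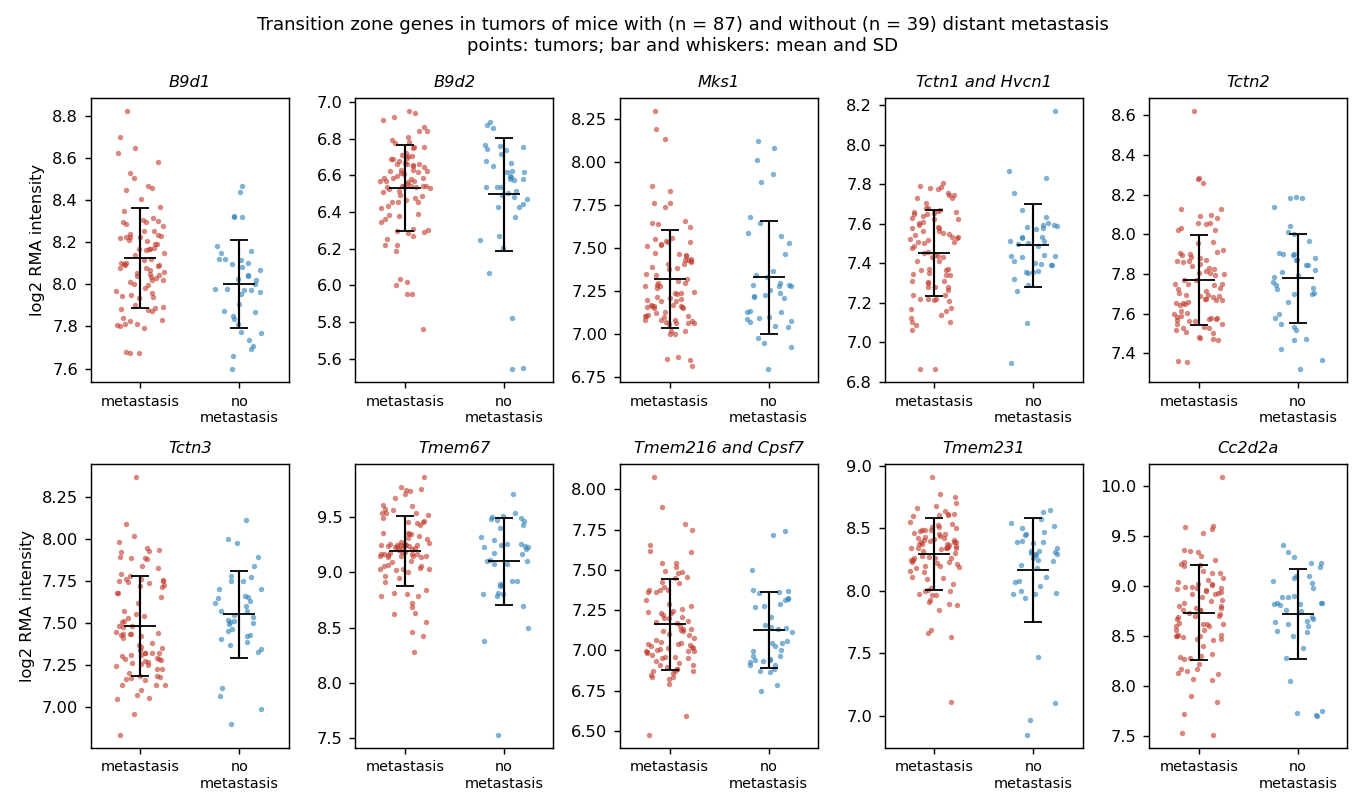
Log2 RMA intensity of the 10 transition zone genes in each tumor (points), with mean and SD (bar and whiskers), in males with metastasis (left, n = 87) and without (right, n = 39). The groups overlap in every panel, and B9d1 has means of 8.13 with metastasis and 8.00 without.

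The labels name no batch, so values were also taken within 4 ranges of the mouse tag number, the number in each mouse's title. The B9d1 difference was 0.17 among tags below 500, −0.02 among tags of at least 500 but below 800, 0.16 among those of at least 800 but below 1000, and 0.14 among the rest, so it ran the other way in 1 of the 4 ranges. That of Tmem231 was 0.28, 0.19, 0.08 and 0.08 in the same order. Without the array of N1202 the B9d1 difference was 0.11 (unadjusted p = 0.0113) and that of Tmem231 0.11 (unadjusted p = 0.0854).

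The second comparison set each gene against primary tumor burden. Here 3 of the 8 genes passed the test, 2 that rose with burden and 1 that fell, where 36.7% of all probe sets passed, 20.3% rising and 16.4% falling. The members passed about as often as the array as a whole. At an unadjusted p under 0.05, 3 rose and 1 fell, Tmem231 being added, where 44.8% of all probe sets passed, 25.6% rising and 19.2% falling. B9d1 was not among them.

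B9d2, a B9 domain partner of B9d1, rose with burden. In tumors under 1 g its lowest value was 5.55, its median 6.28 and its highest 6.62, in tumors of 1 to under 5 g 5.54, 6.54 and 6.94, and in tumors of 5 g and over 6.20, 6.62 and 6.95. The small tumors reached lower, and the 3 classes overlapped at the top. The slope was 0.036 log2 units per g (SE 0.0071, limma adjusted p = 3.4e-05), with Pearson's r = 0.415 (permutation p = 1e-05, the smallest that 100000 resamples give) and Spearman's rho = 0.388 (p = 1e-05). With the 2 mice farthest from the median burden left out, r was 0.416, and within the 4 tag ranges it was 0.443, 0.669, 0.420 and 0.213.

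Tmem67 also rose. Its lowest value, median and highest value were 7.53, 8.87 and 9.57 under 1 g, 8.28, 9.23 and 9.78 from 1 to under 5 g, and 8.38, 9.21 and 9.86 at 5 g and over. The step lay between the tumors under 1 g and the rest, while the medians of the 2 heavier classes were nearly equal. The slope was 0.030 per g (SE 0.0099, adjusted p = 0.012), with r = 0.260 (permutation p = 0.00316), rho = 0.219 (p = 0.014) and 0.263 for r without the 2 extreme mice. The tag ranges gave 0.355, 0.614, 0.136 and 0.197. The lowest value was that of N1202, and without that array the slope was 0.024 (adjusted p = 0.031).

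Mks1, also a B9 domain protein, fell with burden. It had a lowest value of 6.92, a median of 7.51 and a highest value of 8.13 under 1 g, 6.80, 7.25 and 8.30 from 1 to under 5 g, and 6.81, 7.16 and 7.76 at 5 g and over. The heaviest class lacked the high values of the others. The slope was −0.031 per g (SE 0.0084, adjusted p = 0.0019), with r = −0.315 (permutation p = 0.00044), rho = −0.316 (p = 0.00044) and −0.329 for r without the 2 extreme mice. Within tag ranges r was −0.559, −0.414, −0.253 and −0.272.

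**Figure D2:**
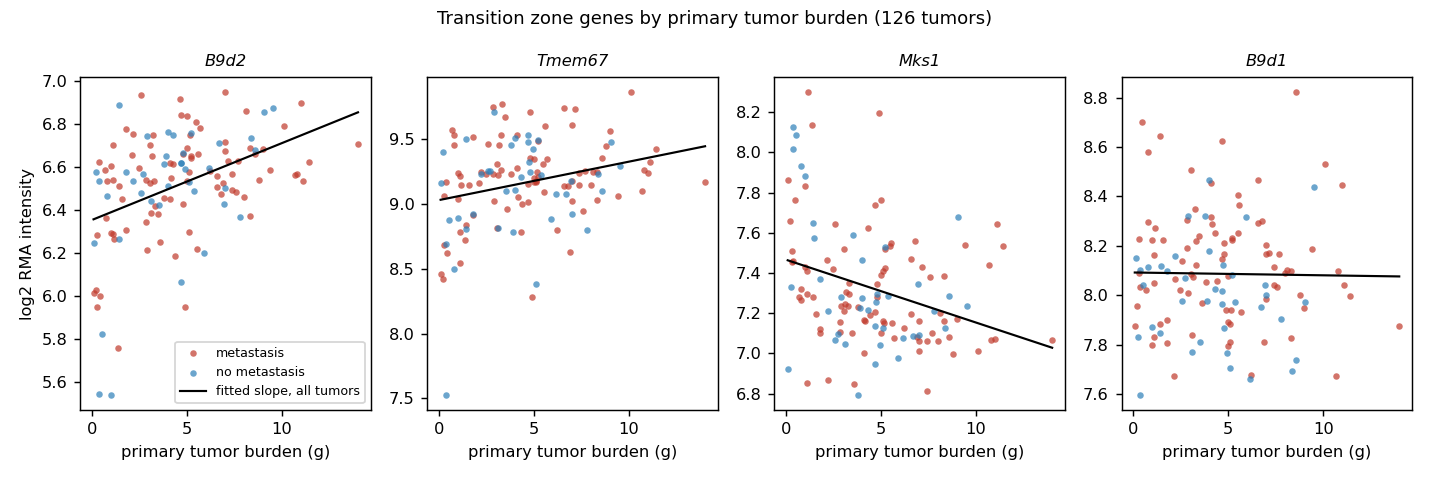
Log2 RMA intensity of B9d2, Tmem67, Mks1 and B9d1 against primary tumor burden in g, for 126 tumors (red, metastasis; blue, no metastasis), with the fitted slope over all tumors as a line. B9d2 and Tmem67 rise by 0.036 and 0.030 log2 units per g, Mks1 falls by 0.031 and B9d1 has a slope of −0.0011.

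B9d1 itself had no slope past the threshold. Its medians were 8.09 under 1 g, 8.09 from 1 to under 5 g and 8.04 at 5 g and over, and its slope was −0.0011 per g (95% interval −0.015 to 0.013, adjusted p = 0.919), with r = −0.015 and rho = −0.025. Tmem231 had r = 0.197 (permutation p = 0.0284) but rho = 0.126 (p = 0.16), and its slope of 0.022 missed the threshold (interval 0.0026 to 0.041, adjusted p = 0.066), though it passed with tag number range as a block (0.026, adjusted p = 0.021). With log2 of burden in place of burden, Tmem231 and Cc2d2a passed as well (adjusted p = 0.00099 and 0.0021). Tctn2 (slope −0.0031, interval −0.017 to 0.010), Tctn3 (0.015, −0.0019 to 0.032) and Cc2d2a (0.022, −0.0044 to 0.049) did not pass. The second probe set of Tctn3 had r = 0.170, and that of Tmem67 r = 0.141 with an adjusted p of 0.224, so the second Tmem67 probe set, at a mean of 3.89, did not share the call.

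Burden moved with lists of marker genes. Over all tumors, burden had r = −0.501 with the epithelial list mean, −0.489 with the prostate list mean, −0.484 with that of smooth muscle and fibroblast markers, −0.406 with that of T cell markers, 0.395 with the cell cycle list mean and 0.284 with the neuroendocrine list mean. B9d2 had r = −0.603 with the smooth muscle and fibroblast mean and −0.642 with the T cell mean, Tmem67 had −0.538 and −0.479, and Mks1 had 0.537 and 0.493. With the epithelial list mean in the fit, the slopes were 0.0084 for B9d2 (adjusted p = 0.63), −0.0043 for Tmem67 (adjusted p = 0.909) and 0.0064 for Mks1 (adjusted p = 0.769), and none passed. Without tumors under 1 g, only that of B9d2 passed among the 8 genes (0.024, adjusted p = 0.029), with 0.015 for Tmem67 (adjusted p = 0.351) and −0.019 for Mks1 (adjusted p = 0.181). The part of cell make-up in these slopes was not tested beyond these fits.

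Whether the burden slope differs by metastasis was tested as an interaction. None of the 23507 probe sets passed (0.0%, with 3180 at an unadjusted p under 0.05, 13.5%, made up of 6.07% with a higher and 7.46% with a lower slope in metastasis). The most different slope among the members was that of Tmem231, with r = 0.0421 with burden in males with metastasis and 0.460 in males without (interaction −0.069 per g, interval −0.11 to −0.025, unadjusted p = 0.0022, adjusted p = 0.273). B9d2 had r = 0.404 with metastasis and 0.455 without.

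The third comparison asked whether the partners of B9d1 move with it from tumor to tumor. Over all tumors B9d1 had a lowest value of 7.60 (N1202), a median of 8.08 and a highest of 8.82 (N197), with an SD of 0.23. Its slope was called for 83 of 23506 probe sets (0.353%), 59 positive (0.251%) and 24 negative (0.102%). None of the 7 partners with a probe set of their own was among them, nor were the 2 shared probe sets. At an unadjusted p under 0.05, 4 of the 7 had a positive slope (Tctn2, Tctn3, Tmem67 and Tmem231) and none a negative one, where 7.06% of all probe sets were positive and 4.25% negative. The median r of the 7 with B9d1 was 0.188, and the median over all probe sets was 0.0091.

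Tctn2, a tectonic, had the highest r with B9d1, 0.307 (permutation p = 0.00044), with rho = 0.321 (p = 0.00027) and 0.299 for r without the 2 tumors of most extreme B9d1 (N197 and N275). Its slope was 0.30 log2 units per log2 unit of B9d1 (SE 0.083, interval 0.13 to 0.46, adjusted p = 0.075). Only 109 of the 23506 probe sets (0.464%) had an r at least as high. It was positive in males with metastasis (0.322) and without (0.323) and in each tag range (0.295, 0.294, 0.427 and 0.192).

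Tmem67 followed, with r = 0.303 (permutation p = 0.00065), rho = 0.308 (p = 0.00041) and 0.351 without the 2 extreme tumors. The slope was 0.45 (SE 0.13, interval 0.20 to 0.69, adjusted p = 0.078), and r was 0.231 with metastasis and 0.396 without. Both genes had their lowest value in N1202, and without that array the slope was 0.34 (adjusted p = 0.171) and r was 0.250. The second Tmem67 probe set had r = 0.0184 with B9d1.

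Tmem231 had r = 0.291 (permutation p = 0.00099) and rho = 0.355 (p = 0.00011), with 0.288 for r without the 2 extreme tumors. Its slope was 0.42 (SE 0.12, interval 0.17 to 0.66, adjusted p = 0.097). Within groups r was 0.305 with metastasis and 0.200 without, and 0.170, 0.183, 0.376 and 0.481 over the tag ranges. In N197, the tumor highest in B9d1, Tmem231 also had its highest value (8.91).

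Whether these 3 genes were called turned on the setting. Each passed with arrays centred on their medians (adjusted p = 0.0135 for Tctn2, 0.0223 for Tmem67 and 0.0231 for Tmem231), and each passed with the epithelial list mean in the fit (0.0442, 0.00129 and 0.00211 in the same order). With the first 3 principal components of all probe sets in the fit the slopes were 0.35, 0.55 and 0.51 (adjusted p = 0.00078, 4.9e-05 and 0.00015). In those fits more probe sets passed overall as well, 335, 167 and 488 in turn, against 83. With metastasis and burden in the fit none of the 3 passed.

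**Figure D3:**
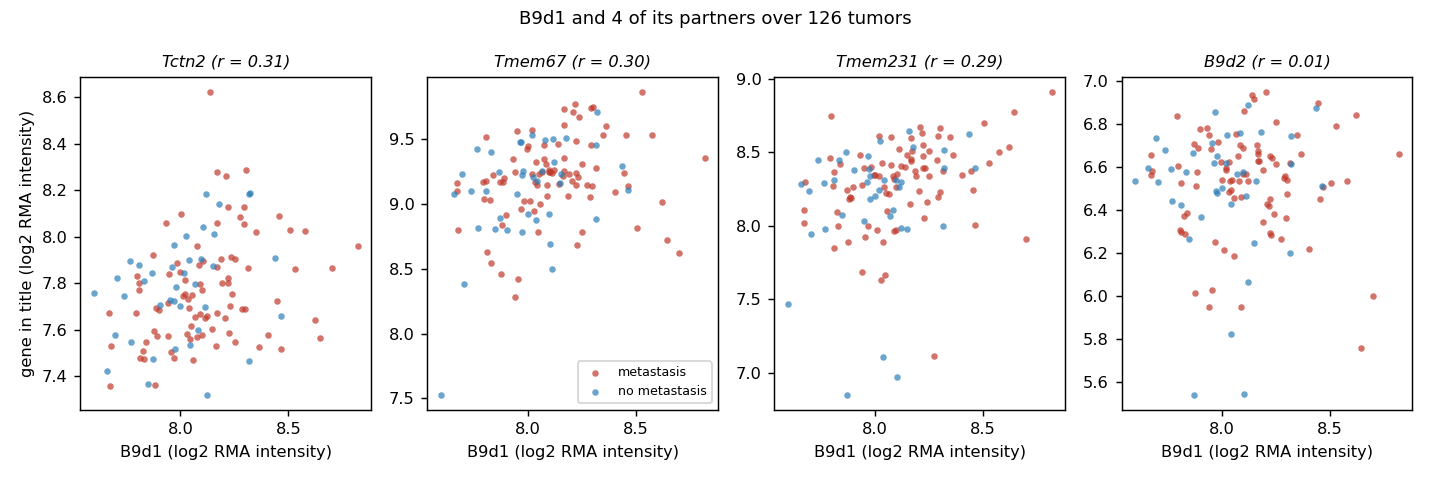
Log2 RMA intensity of Tctn2, Tmem67, Tmem231 and B9d2 (vertical axes) against that of B9d1 (horizontal axis) in 126 tumors (red, metastasis; blue, no metastasis). The first 3 rise loosely with B9d1 (r = 0.31, 0.30 and 0.29) while B9d2 has r = 0.0075.

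The closest relatives of B9d1 had no slope on it past the threshold. B9d2 had r = 0.0075 with B9d1 (rho = 0.040, slope 0.0083, interval −0.19 to 0.21) and Mks1 had r = 0.030 (rho = 0.029, slope 0.039, interval −0.19 to 0.26). Cc2d2a had r = −0.058 (rho = 0.015, slope −0.11, interval −0.46 to 0.23). Tctn3 stood between, with r = 0.188 (permutation p = 0.0341) and rho = 0.163 (p = 0.0694), and its second probe set had r = 0.0011. The Tctn1 and Hvcn1 probe set had r = 0.224 (p = 0.0118) and the Tmem216 and Cpsf7 probe set r = 0.251 (p = 0.00444), with adjusted p of 0.273 and 0.188. No probe set had a B9d1 slope that differed by metastasis in the test of the interaction (0.0%, with 1979 at an unadjusted p under 0.05, 8.42%, made up of 5.22% higher and 3.19% lower), the members included.

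**Figure D4:**
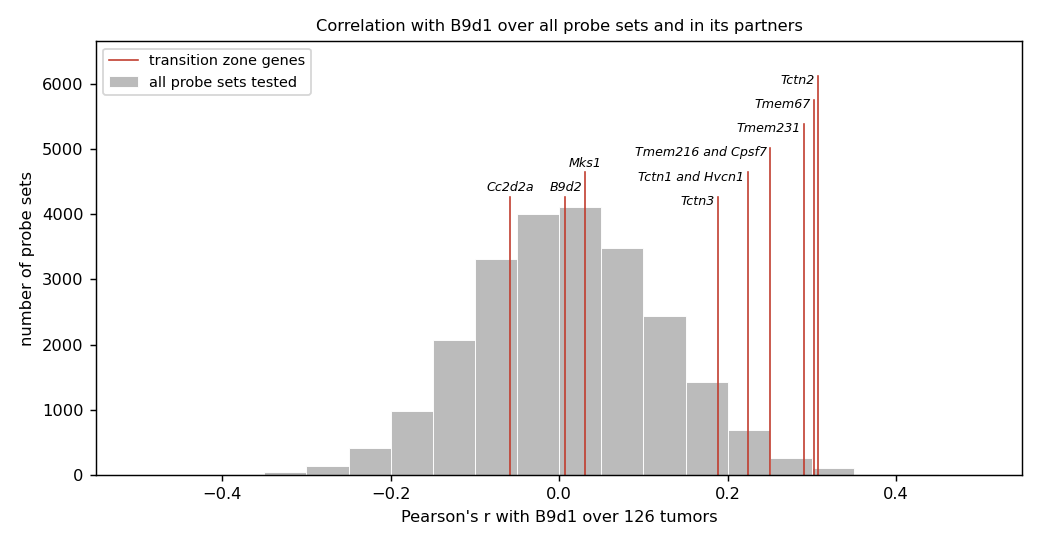
Number of probe sets (vertical axis) by Pearson's r with B9d1 over 126 tumors (horizontal axis, bins of 0.05), with the 9 partners as red lines. Tctn2, Tmem67 and Tmem231 lie in the upper tail near 0.3, while B9d2, Mks1 and Cc2d2a lie near 0.

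Among themselves, the partners held together more than with B9d1. Over the 28 pairs of the 8 genes, 22 had a positive r and 6 a negative one, from −0.450 (Mks1 and Cc2d2a) to 0.577 (B9d2 and Tmem231), and the median was 0.188 for the 7 pairs with B9d1 and 0.409 for the 21 others. B9d2, Tmem67, Tmem231 and Cc2d2a formed a set with r of 0.421 to 0.577 in each pair. By ranks these pairs ran from 0.357 (Tmem231 and Cc2d2a) to 0.519 (Tmem67 and Tmem231), with 0.434 for B9d2 and Tmem231. The r of B9d2 and Tmem231 was 0.362 with metastasis and 0.826 without. Tctn2 had r = 0.451 with Tmem67, 0.422 with Cc2d2a and 0.409 with Tctn3, and the Tctn1 and Hvcn1 probe set had 0.525 with Tctn2. These are descriptions over tumors that differ in cell make-up, all values coming from the same arrays, with no test.

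Mks1 went against that set, with r = −0.435 with B9d2, −0.416 with Tmem67, −0.367 with Tmem231 and −0.450 with Cc2d2a. By ranks the values were weaker, −0.233, −0.275, −0.018 and −0.303, and that with Tmem231 was near 0. The 4 tumors lowest in Tmem231 were N614 (6.85), N293 (6.97), N582 (7.10) and N586 (7.11), and their Mks1 values were 7.88, 8.13, 8.08 and 8.30, the last the highest of all. Their epithelial list means were 9.62, 9.88, 9.94 and 9.91, and that of N582 was the highest of all tumors. Not every tumor high in the epithelial list mean and Mks1 was low in Tmem231. N1086, with an epithelial list mean of 9.66 and Mks1 at 8.14, had Tmem231 at 8.77.

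The same split showed against other gene lists in Pearson's r, for which no rank version was taken. Some tumors stood apart in these lists. N293, N582, N586 and N614 had neuroendocrine list means of 5.80, 6.46, 6.41 and 6.91. N275 had the lowest of all tumors, 5.76, and N1086 had 6.42, with Tmem231 at 7.91 and 8.77 in turn. The medians were 9.46 with metastasis and 9.42 without. How far such tumors carry the values of r was not tested. The split also showed against each array's mean correlation with the other arrays. With it r was 0.580 for B9d2, 0.564 for Tmem67, 0.556 for Tmem231 and 0.511 for Cc2d2a, but −0.678 for Mks1 and −0.055 for B9d1. What part unlike arrays have in the split was not tested. With the mean of 17 epithelial genes, such as Cdh1 and Krt8, r was −0.682 for B9d2, −0.608 for Cc2d2a, −0.574 for Tmem67 and −0.562 for Tmem231, but 0.727 for Mks1. With the cell cycle mean (Mki67, Top2a and others) it was 0.635 for B9d2, 0.60 for Tmem67, 0.548 for Tmem231 and 0.513 for Cc2d2a, but −0.640 for Mks1. B9d1 stayed near 0 with both, 0.0928 and −0.0185, and had −0.0634 with the neuroendocrine mean. With the mean of the motile cilium genes r was 0.708 for Cc2d2a, 0.555 for Tmem231, 0.549 for Tctn2, 0.545 for Tctn3, 0.483 for Tmem67, 0.470 for B9d2, 0.195 for B9d1 and −0.333 for Mks1.

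**Figure D5:**
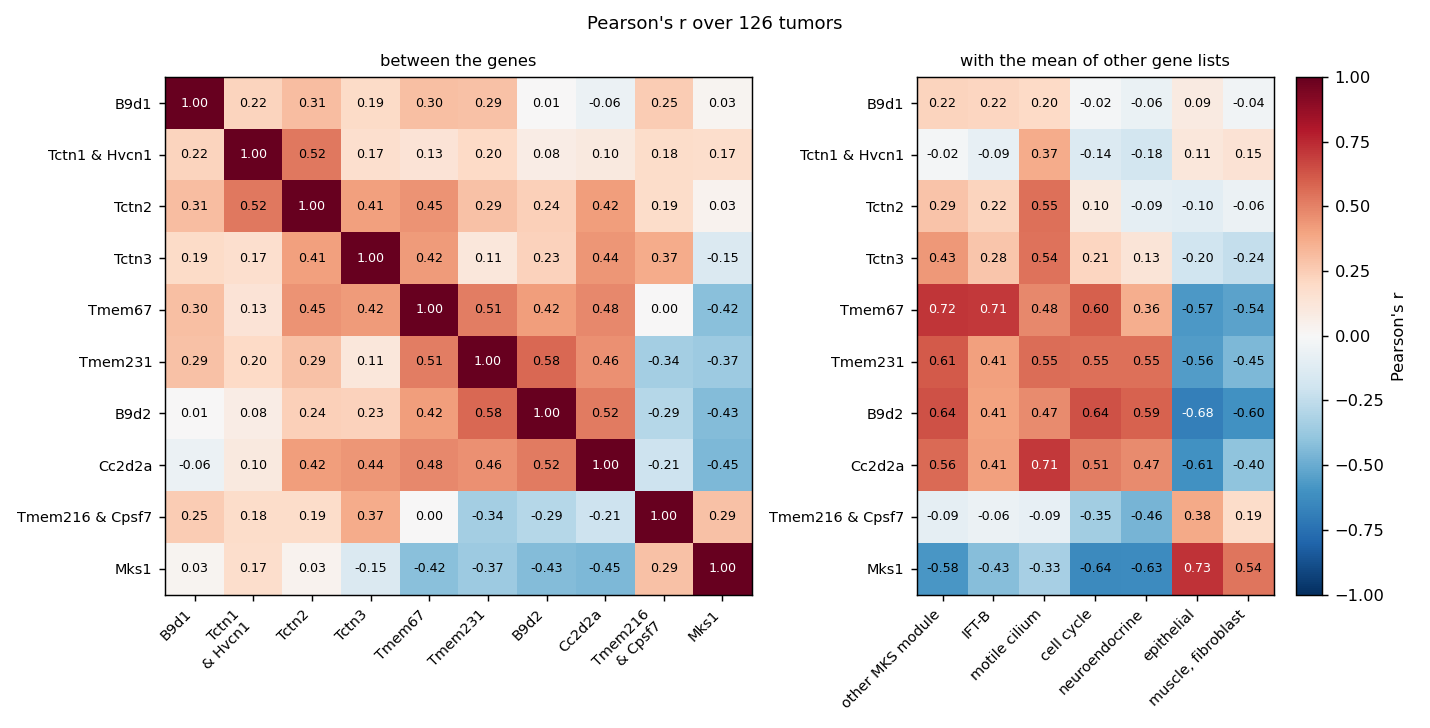
Pearson's r over 126 tumors between the 10 transition zone genes (left) and of each gene with the mean of 7 other gene lists (right), with the value printed in each cell and red for positive, blue for negative. B9d2, Tmem67, Tmem231 and Cc2d2a form a positive block, Mks1 runs against it, and B9d1 is near 0 with the epithelial, cell cycle and neuroendocrine means.

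Other genes of the cilium were read the same way, as 8 lists with 81 genes tested. Against burden 36 rose (44.4%) and 7 fell (8.64%), where 20.3% of all probe sets rose and 16.4% fell. Against B9d1, 2 passed, both positive (2.47%, against 0.251% of all probe sets), and 54 of the 81 had a positive r, where 53.3% of all probe sets did. Against metastasis none passed. The 2 that passed were Ift22, a subunit of the IFT-B train that carries cargo along the cilium (r = 0.412 with B9d1, slope 0.50, adjusted p = 0.0040), and Unc119b, which binds lipid-modified cargo for the cilium (r = 0.425, slope 0.45, adjusted p = 0.0028).

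Of the 9 other genes of the MKS module, to which B9d1 belongs, 7 rose with burden, 2 fell and none passed with B9d1. Among all probe sets 20.3% rose with burden, 16.4% fell and 0.353% passed with B9d1. Tmem107, which lies on chromosome 11 with B9d1, had r = 0.307 with it (adjusted p = 0.074) and Tmem80, on chromosome 7, 0.263 (adjusted p = 0.159). Tmem237 rose with burden by 0.049 log2 units per g (adjusted p = 0.00086), and Tmem218 (−0.047, adjusted p = 0.0046) and Tulp3 (−0.023, adjusted p = 0.0054), which carries receptors into the cilium, fell. Of 10 genes of the NPHP module, 5 rose and 3 fell with burden, with Nphp4 at 0.046 per g (adjusted p = 9.3e-05) and the inversin gene Invs at −0.024 (adjusted p = 0.025).

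Of 16 IFT-B genes 6 rose with burden and 1 fell (Ift20, −0.030 per g, adjusted p = 0.0026), of 6 IFT-A genes 2 rose, and of 13 genes of the basal body and its fibres 9 rose and none fell. Cep89, of the distal appendages, rose by 0.040 per g (adjusted p = 0.00024) and Ccp110, which caps the mother centriole, by 0.057 (adjusted p = 0.0019). Of 8 BBSome genes 1 rose and 1 fell, with Bbs2 at −0.058 per g (adjusted p = 2.5e-05), and of 8 genes of the ciliary membrane 3 rose. Beside these counts from short lists, 20.3% of all probe sets rose with burden and 16.4% fell. Over the 81 genes, the highest r with B9d1 after Unc119b and Ift22 was that of Wdr19, of IFT-A (0.314, adjusted p = 0.064).

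Of 15 Hedgehog pathway genes 2 rose and 6 fell with burden, where 20.3% of all probe sets rose and 16.4% fell. Of 12 smooth muscle and fibroblast markers 11 fell and none rose, and the part of those cells in the Hedgehog values was not tested. Smo, the signal transducer that enters the cilium, fell by 0.075 per g (adjusted p = 0.00024), the co-receptor Boc by 0.13 (adjusted p = 1e-06), the ligand trap Hhip by 0.11 (adjusted p = 0.00013) and the transcription factor Gli1 by 0.030 (adjusted p = 0.0029). Kif7, a ciliary kinesin of the pathway, rose by 0.020 (adjusted p = 0.012). None passed with B9d1, where 0.353% of all probe sets did, and the r of those 5 with it lay between −0.164 (Kif7) and 0.0992 (Hhip). The Hedgehog list mean had r = 0.648 with Mks1 and −0.495 with B9d2. Among 11 RFX and other ciliary regulators 3 rose with burden, Rfx3 by 0.064 (adjusted p = 0.017), Rfx5 by 0.025 (adjusted p = 0.022) and Rfx7 by 0.022 (adjusted p = 0.0017). Rfx2 had r = 0.213 with B9d1 (adjusted p = 0.300).

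The motile cilium markers, which would show multiciliated cells, differed among themselves, and their list mean was 6.13 ± 0.22 (SD) with metastasis and 6.13 ± 0.22 without. Of the 15 genes tested none passed with B9d1 or metastasis, and 1, Rsph9, rose with burden by 0.034 (adjusted p = 0.014). Among all probe sets 0.353% passed with B9d1 and 0.0% with metastasis, while 20.3% rose and 16.4% fell with burden. Foxj1, the master regulator of motile cilia, had a lowest value of 5.12, a median of 5.53 and a highest of 6.57, and Rsph4a was above the 10th percentile of all probe set means on 10 arrays. Other markers reached higher values in some tumors, with a lowest of 5.67 and a highest of 9.81 for Tekt2, 5.60 and 8.90 for Deup1 and 5.36 and 8.57 for Rsph1.

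The genes most like B9d1 over the 126 tumors were named by r among probe sets of 1 gene. Pttg1 (securin, a mitotic regulator) had 0.480, Mrpl10 (a mitochondrial ribosomal protein) 0.467, Dync2li1 (a light intermediate chain of the ciliary dynein-2 motor) 0.464, 1700088E04Rik 0.442, Unc119b 0.425, Fuz (a planar polarity effector needed for ciliogenesis) 0.422, Dhrs7b 0.413, Ift22 0.412, Ccpg1os 0.408 and Jmjd8 0.406, all with adjusted p between 0.00023 and 0.0046. Within the 2 groups Dync2li1 had 0.503 with metastasis and 0.390 without, Fuz 0.462 and 0.373, and Pttg1 0.472 and 0.493. The most negative were Lrrc46 (−0.396), Tom1l1 (−0.386), Cisd3 (−0.377), Cfap53 (−0.376) and Med9os (−0.368), with adjusted p between 0.0082 and 0.017. Cfap53 is by name a cilia and flagella associated protein, so genes tied to cilia were on both sides. Without N197 and N275, the 2 tumors of most extreme B9d1, Cisd3 did not pass (adjusted p = 0.053), while the other 14 genes did.

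Of these 15 genes, 7 lie on chromosome 11 with B9d1 (Pttg1, Mrpl10, Dhrs7b, Lrrc46, Tom1l1, Cisd3 and Med9os). Of the called probe sets of 1 gene, 10 of 54 with a positive slope (18.5%) and 7 of 20 with a negative one (35%) were on chromosome 11, against 7.81% of all such probe sets placed on a chromosome. No gene tested within 0.5 Mb of B9d1 was among them, and distances beyond that window were not read. Of 18 tested genes within 0.5 Mb of it in GRCm38.p6, none passed, where only 0.353% of all probe sets did, so that count says little. At an unadjusted p under 0.05, 0 were positive and 1 negative, against 7.06% and 4.25% of all probe sets. Their r lay between −0.204 (Aldh3a1, an aldehyde dehydrogenase) and 0.156 (Aldh3a2), with a median of 0.027. Of the members, only Mks1 shares chromosome 11 with B9d1, and its r was 0.030. Genotypes were not used here, so linkage over longer stretches of the chromosome was not tested.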

How the data were processed

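Total RNA of 126 prostate tumors was hybridized to Affymetrix Mouse Gene 2.0 ST arrays with 1 channel. The labels name a column kit for extraction and the methods TRIzol. The authors normalized the intensities by RMA in Partek (version not given in the sources used here) and deposited log2 values per probe set. The number of arrays, not a read depth, limits the precision. Gene names come from the platform annotation, with 23521 probe sets naming 1 gene, 1820 several and 16004 none. Probe sets with a name and a mean at or above the 10th percentile of all means (3.42 log2 units, 23507 probe sets) were tested with limma 3.58.1 in R 4.3.3, with Benjamini-Hochberg adjustment over all of them and a threshold of 0.05. The fits were metastasis minus no metastasis, the slope per g of primary tumor burden, the slope per log2 unit of B9d1, and 2 interactions. The methods correlate or compare by t-test without covariates, for the transcripts of each QTL. Here limma over all tested probe sets took the place of the t-test. Correlations and single differences had two-sided permutation tests with 100000 resamples. Replicates are separate males. Fits were tested on simulated data. Promoter sequences and chromosomes are those of RefSeq, GRCm38.p6, and no source used here names a build for the array. Named besides the 10 genes were the 10 most positive and 5 most negative genes by r with B9d1, the genes within 0.5 Mb, and in each list up to 4 genes by r with B9d1 and up to 4 by p. The members and lists were chosen with earlier results of these data known. List genes without a probe set of their own that was tested were not analysed here.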

Additional observations from a re-analysis of the deposited data

How the results depend on the processing

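No paired analysis applied, because each male gave 1 tumor and belonged to 1 group. Most results kept their direction and side of the threshold over filters, normalization, tag number range as a block, covariates and left-out tumors, and leaving out N1202 and the neuroendocrine list mean as a covariate were chosen after seeing the data. With no tumor under 1 g, 1937 probe sets were called against burden and 32 against B9d1, against 8637 and 83, with 1 member rising and 0 falling with burden in place of 2 and 1. With list means as covariates the burden slope called 96 (epithelial, 0 members rising, 0 falling), 702 (cell cycle, 0 and 0) and 3463 (neuroendocrine, 1 and 0) probe sets, and the slopes of Mks1 (0.0064) and Tmem67 (−0.0043) reversed with the epithelial one. With log2 of burden 4 members rose. The B9d1 slope called 335 probe sets with arrays centred on their medians (87.5% positive, against 71.1%), 41 after quantile normalization, 167, 311 and 157 with the epithelial, cell cycle and neuroendocrine means, 488 with 3 principal components, 46 by Spearman rank correlation and 35 without the 2 most extreme tumors. Members called positive, 0 in the fit reported, were 3 with centring, with the epithelial mean, with the cell cycle mean and with the components, 2 with the neuroendocrine mean, and 1 each by Spearman rank correlation (Tmem231) and without the 2 extreme tumors (Tmem67). With tag number range as a block the interaction of metastasis and burden called 3 probe sets, none a member, in place of 0, and the burden slope of Tmem231 passed (adjusted p = 0.021). The causes of these changes were not tested. Probe sets of low mean, such as the second one of Tmem67 (3.89), lie near the filter, where an array separates little.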
